A study of Mus musculus with 10 samples.

Results

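Collagen chains are the polypeptides that wind together into the collagen triple helix, and the genes described here are the mouse protein-coding genes whose symbol is Col, a type number, the letter a and a chain number. The rule found 44 genes among the 29972 genes measured. They were read in 10 RNA-seq libraries, each made from liver cells that had been separated by flow cytometry. HpC (n = 4) are peripheral cholangiocytes, the epithelial cells of the small bile ducts, that derived from hepatocytes; pC (n = 3) are ordinary peripheral cholangiocytes; and H (n = 3) are hepatocytes. HpC and H came from mice of genotype Alb-Cre+/-;Rbpjf/f;Hnf6f/f, in which the albumin promoter drives Cre in the hepatocyte lineage and both floxed genes are its targets. pC came from Rbpjf/f;Hnf6f/f mice without Cre. Rbpj encodes the DNA-binding partner of Notch, and Hnf6, also called Onecut1, encodes a transcription factor of bile duct development. Between HpC and pC, the origin of the cells and the genotype of the mice therefore cannot be told apart. All mice were of a mixed C57BL/6, FVB and CD1 background. Ages, in postnatal days, were P124, P151, P144 and P139 for HpC1 to HpC4, P151, P119 and P142 for pC1 to pC3, and P134, P139 and P139 for H1 to H3. All tissue was perfused with collagenase, and for HpC and pC the nonparenchymal fraction was digested further with collagenase, accutase and trypsin before the sort. H and the cholangiocyte groups thus differ in digestion as well as in cell type. The series title asks about a biliary system formed anew from hepatocytes through TGF-beta.

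Fibrillar collagens assemble into the cable-like fibrils of connective tissue. Type IV chains form the sheet-like network of basement membranes, which underlies the epithelium of bile ducts, while hepatocytes in the lobule rest on little basement membrane. Other chains decorate fibrils (FACITs), build beaded filaments (type VI), span the cell membrane, or carry an anti-angiogenic fragment at their end (multiplexins, such as the endostatin-bearing type XVIII). In liver, stellate cells and portal fibroblasts are known as the main makers of fibrillar collagen.

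Values are TPM, the share of a library's transcripts after correction for length, summed per gene and rescaled between libraries. They are called scaled TPM here. The number of reads is unknown, so no counting error can be given. Cholangiocyte markers summed to 2180 to 3260 scaled TPM in the HpC libraries, 5690 to 5930 in pC and 53.8 to 75 in H, and hepatocyte markers to 3110 to 5920, 1030 to 2680 and 87600 to 94900. HpC1 stood apart through pancreatic acinar transcripts, which summed to 207000 scaled TPM there and to at most 911 elsewhere. HpC2 stood apart through squamous epithelial transcripts, which summed to 40600 against at most 12.8 elsewhere. Summed Rbpj ran from 4.09 to 6.24 scaled TPM in the HpC libraries, 5.51 to 6.82 in pC and 1.2 to 1.59 in H, and Onecut1 from 19.3 to 46.3, 63.0 to 81.9 and 46.0 to 109. The floxed exons are not given in the sources used here, so these totals do not check the deletion. H2 and H3 share an age, and separate animals are not stated for them. For H, p-values may therefore measure only technical spread. HpC4 has that same age, P139, and the genotype of H, and is not stated to come from a separate animal either. HpC4 and the H libraries may therefore not be independent. In such bulk samples, fewer cells of a type and less RNA per cell cannot be told apart.

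Of the 44 chains, 27 reached 1 TPM in at least 3 libraries and were tested, and 17 did not. Among the tested chains, Col5a2, Col6a5, Col7a1 and Col12a1 reached 1 TPM only in HpC libraries, so they had passed through the group in which they were high. Between HpC and pC, limma called 6 of the 27 chains higher in HpC (Col3a1, Col5a1, Col6a1, Col6a2, Col6a5 and Col12a1) and 1 lower (Col9a3), at a Benjamini-Hochberg adjusted p under 0.05. That test called 4.54% of all 14765 tested genes, 1.99% higher and 2.55% lower. The median log2 difference was 0.75 over the 27 chains, with Col5a2, Col6a5, Col7a1 and Col12a1 included, and -0.01 over all tested genes. The filter favours a positive sign for those 4 chains, so the median of 0.75 is no test of a shift of the set. With TPM as deposited, without rescaling, the split was 2 higher and 2 lower, and the median of all genes moved to -0.36. Against H, 20 chains were higher and 2 lower in HpC, where limma called 59.9% of all genes, 30.7% higher and 29.2% lower. In pC, 15 chains were higher and 2 lower than in H, where it called 59.6%, 31.1% higher and 28.6% lower. The libraries of the 2 groups did not overlap for 13 of the 27 chains between HpC and pC (16.5% of all genes), for 22 between HpC and H (60.5%) and for 21 between pC and H (70.3%). Comparisons with a common group share its libraries.

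**Figure D1:**
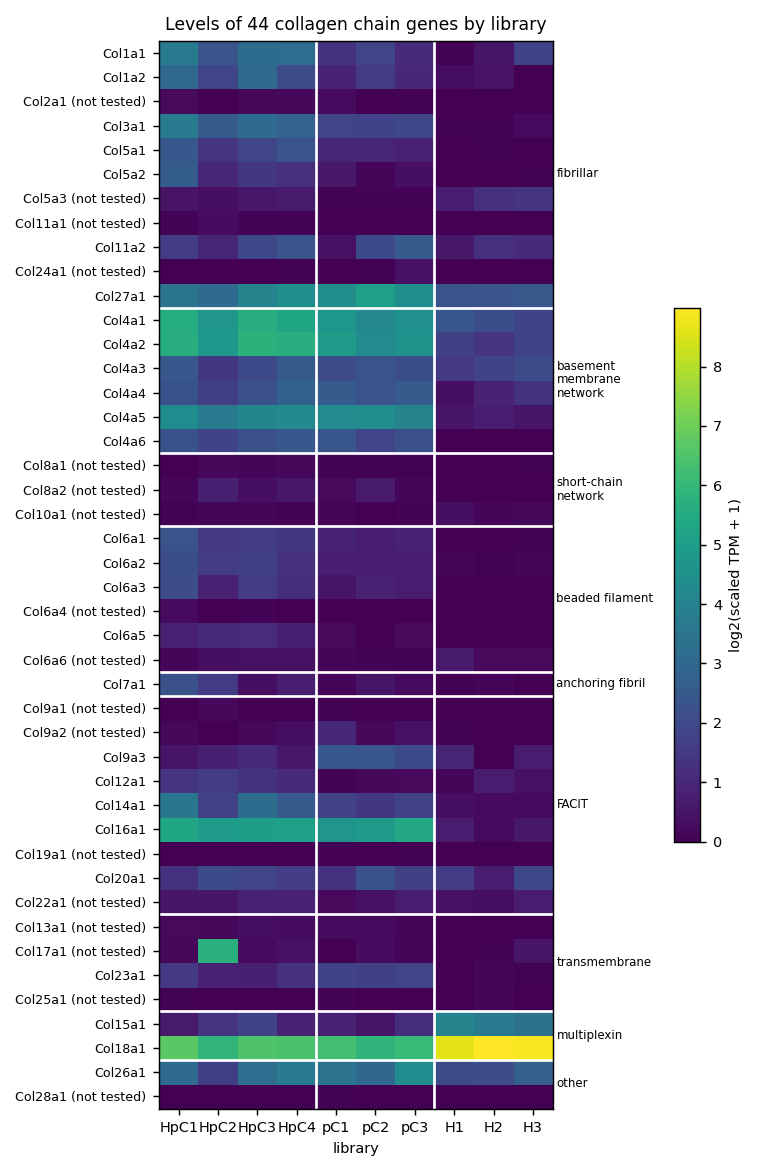
Log2(scaled TPM + 1) of each of the 44 collagen chain genes (rows, by structural class) in each of the 10 libraries (columns). Col18a1 is the brightest row in H, the type IV rows other than Col4a3 are brighter in HpC and pC than in H, and the single bright cell of Col17a1 is HpC2.

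The DNA just upstream of 4 genes is shown because the comparisons called them in opposite directions. Col3a1 and Col5a1 are the fibrillar chains called higher in HpC than in pC, and Col15a1 and Col18a1 are the chains called lower in both cholangiocyte groups than in H. The sequences come from RefSeq on GRCm38.p6, and read 5′ to 3′ on the strand of the gene. They end just before the RefSeq start, or, for Col18a1, 18 bases earlier, where the first GENCODE exon begins. Capitals mark, on either strand, the letters TATAAA of the TATA box, the letters CCAAT bound by NF-Y, and the letters GGGCGG of the GC box bound by Sp family factors.
Col3a1, chr1:45311288-45311537, plus strand: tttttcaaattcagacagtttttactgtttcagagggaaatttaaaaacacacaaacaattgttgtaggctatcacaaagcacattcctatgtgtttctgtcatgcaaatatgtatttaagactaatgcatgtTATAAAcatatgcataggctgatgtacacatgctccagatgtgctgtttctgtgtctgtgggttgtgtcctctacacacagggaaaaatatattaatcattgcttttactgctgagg
Col5a1, chr2:27886175-27886424, plus strand: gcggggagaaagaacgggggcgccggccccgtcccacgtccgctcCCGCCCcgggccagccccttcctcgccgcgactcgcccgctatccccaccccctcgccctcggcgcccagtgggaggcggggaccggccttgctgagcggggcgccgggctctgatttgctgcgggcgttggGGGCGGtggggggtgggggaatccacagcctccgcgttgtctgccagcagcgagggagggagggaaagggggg
Col15a1, chr4:47207762-47208011, plus strand: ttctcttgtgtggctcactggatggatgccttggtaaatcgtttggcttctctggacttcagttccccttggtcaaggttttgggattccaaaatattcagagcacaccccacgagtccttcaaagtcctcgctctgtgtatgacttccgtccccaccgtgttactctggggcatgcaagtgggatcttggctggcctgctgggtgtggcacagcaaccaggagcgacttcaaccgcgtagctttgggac
Col18a1 upstream start, chr10:77166549-77166780, minus strand: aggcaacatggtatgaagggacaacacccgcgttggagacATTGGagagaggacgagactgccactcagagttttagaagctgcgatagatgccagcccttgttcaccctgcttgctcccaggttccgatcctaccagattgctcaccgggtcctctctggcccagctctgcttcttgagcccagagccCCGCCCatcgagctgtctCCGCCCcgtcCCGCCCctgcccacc
Counted from the first letter of a match to the end of the printed sequence, Col3a1 holds TATAAA at 117 bases. Col5a1 holds GGGCGG at 205 and 73 bases, and Col18a1 holds CCAAT at 192 bases and GGGCGG at 43, 25 and 15 bases. None of these letters were found for Col15a1. A window was given for 35 of the 44 chains. Within 250 bases upstream, CCAAT was found in 13 of the 35, TATAAA in 5 and GGGCGG in 21, against 33.8%, 12.4% and 32.7% of 32851 windows of all genes. The chains, which had 38 windows, were counted per gene and the background per window, so the 2 rates are not in the same unit. GTGGGAA, the core bound by RBPJ, was found in 2 of the 35 (Col10a1 and Col4a5; 5.42% of all windows), and ATCAAT, a core bound by ONECUT1, in 0 (6.72%). A match of letters is a description and not a binding site.

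Among the 11 fibrillar genes, 7 were tested, and 2 of these were higher in HpC than in pC, 0 were lower and 5 did not pass. Of all genes, 1.99% were higher and 2.55% lower. Before adjustment, 5 of the 7 fibrillar chains were higher and 1 lower at p under 0.05. Col3a1 (chr1, 45311538 to 45349706; gene positions are GENCODE M21 on mm10), the chain of type III collagen, which mixes into type I fibrils, gave 11.7, 4.86, 7.93 and 6.15 scaled TPM across replicates 1 to 4 of HpC, 2.66, 2.50 and 2.87 across those of pC, and 0.0457, 0.0697 and 0.191 in H. Every HpC library lay above every pC library, and every pC library above every H library. The HpC mean of 7.67 ± 2.99 (SD, n = 4) was 2.86 times the pC mean of 2.68 ± 0.189 (n = 3). The log2 difference was 1.18 ± 0.24 (SE, adjusted p = 0.0219). Against H it was 2.92 ± 0.24 in HpC (adjusted p = 3.19e-06) and 1.74 ± 0.26 in pC (adjusted p = 0.000212).

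Col5a1 (chr2, 27886425 to 28039514), the main chain of the minor fibrillar type V that starts fibril growth, stood at 4.59, 1.57, 2.68 and 3.97 scaled TPM in the HpC libraries, 0.926, 0.976 and 0.751 in pC, and 0.0, 0.0612 and 0.0 in H. The groups did not overlap. Its log2 difference between HpC and pC was 1.10 ± 0.25 (adjusted p = 0.0359). Col5a1 missed the threshold in 14 of the 20 alternative settings that tested it, among them leaving out any single library other than HpC2. Its partner Col5a2 stood at 5.26, 0.981, 1.74 and 1.33 in HpC, 0.545, 0.116 and 0.291 in pC, and 0.0, 0.0 and 0.0418 in H. HpC1 was far above the other HpC libraries, and the groups did not overlap. HpC and pC differed by 1.19 ± 0.35, which did not pass (adjusted p = 0.0925), and HpC was higher than H by 1.56 ± 0.35 (adjusted p = 0.00301). Col5a3, another type V chain, was below the filter and highest in H, at 0.704, 1.33 and 1.57 scaled TPM, against 0.286 to 0.571 in HpC and 0.042 to 0.0556 in pC.

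The type I chains, which form the bulk of scar collagen, were also well above pC in HpC but did not pass the test. Col1a1 (chr11, 94936224 to 94953042) stood at 11.7, 4.23, 8.05 and 8.30 scaled TPM in the HpC libraries, 1.5, 2.7 and 1.16 in pC, and 0.0713, 0.424 and 2.48 in H. Its difference of 1.67 ± 0.42 gave an adjusted p of 0.0546. Col1a2 (chr6, 4504814 to 4541544) stood at 7.42, 2.65, 7.39 and 3.11 in HpC, 0.872, 2.05 and 1.05 in pC, and 0.274, 0.403 and 0.0 in H, with a difference of 1.33 ± 0.34 (adjusted p = 0.0575). For both chains the HpC and pC libraries did not overlap. Without HpC2, the lowest HpC library for either chain, both passed, at 1.91 for Col1a1 (adjusted p = 0.0329) and 1.55 for Col1a2 (adjusted p = 0.0279). Without HpC1 and HpC2 together, neither passed. Between pC and H neither chain passed (adjusted p = 0.243 and 0.0527).

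Col27a1, a fibrillar chain of cartilage, had the highest mean of the fibrillar chains in each group, counting all transcripts, and had the opposite sign. In HpC1, Col1a1 and Col3a1 stood above it. It stood at 10, 7.76, 15.3 and 21.1 scaled TPM in the HpC libraries, 20.8, 32.8 and 20.5 in pC and 3.88, 4.16 and 4.67 in H. HpC and pC overlapped, and the difference of -0.88 ± 0.30 did not pass (adjusted p = 0.154), although both groups were higher than H (1.38 ± 0.30, adjusted p = 0.00264, and 2.26 ± 0.32, adjusted p = 0.000167). Col11a2 ran from 0.917 to 4.04 in HpC, 0.315 to 5.01 in pC and 0.516 to 1.32 in H and differed in none of the 3 comparisons. Col2a1, Col11a1 and Col24a1 stayed at or under 0.349 scaled TPM in every library.

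Markers of stellate cells and fibroblasts, the other cells known to make these chains, did not pass the test between the cholangiocyte groups. The 15 markers summed to 75.8 to 155 scaled TPM in the HpC libraries, 93.5 to 210 in pC and 2.72 to 4.03 in H. Of 13 tested, limma called 0 between HpC and pC, with 3 higher and 2 lower at an unadjusted p under 0.05, and their median log2 difference was 0.53. Decorin (Dcn), which binds collagen fibrils and marks fibroblasts, stood at 34.0, 10.3, 18.9 and 13.3 in HpC and 9.69, 8.57 and 6.54 in pC (log2 difference 1.0 ± 0.33, adjusted p = 0.144). Among the tested markers, Fbln2, Rgs5 and Reln (-0.29) had a negative difference, Tagln stood at 0.0 and all others had a positive one. Fbln2 alone gave 131 of the summed 210 in pC2. Ecm1 stood at 44.1, 19.8, 34.0 and 22.1 in HpC and 21.7, 11.6 and 15.6 in pC (0.81 ± 0.32, adjusted p = 0.215). Rgs5, a pericyte marker, stood at 23.7, 10.4, 16.6 and 14.1 in HpC and 24.4, 39.2 and 34.9 in pC (-1.01 ± 0.26, adjusted p = 0.0578), and Fbln2, a matrix protein of portal fibroblasts, at 10.3, 21.6, 9.77 and 20.6 and 17.4, 131 and 48.4 (-1.66 ± 0.56, adjusted p = 0.143). The receptor gene Pdgfrb and the retinoid enzyme gene Lrat were low but present, Pdgfrb at 0.424 to 2.54 in HpC and 0.271 to 0.701 in pC, and Lrat at 0.12 to 1.36 and 0.32 to 0.411. In H, 13 of the 15 markers were under 1 scaled TPM in all libraries and Thy1 was listed at 0. Mesothelial markers summed to 33.1 to 54.6 in HpC, 24.3 to 30.9 in pC and 0.643 to 1.40 in H, where Upk1b was listed at 0. Among the 6 tested, Upk1b, Msln and Wt1 were higher and Gpm6a lower in HpC than in pC (of all genes 1.99% and 2.55%). The part of these cells in the collagen values was not tested.

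**Figure D2:**
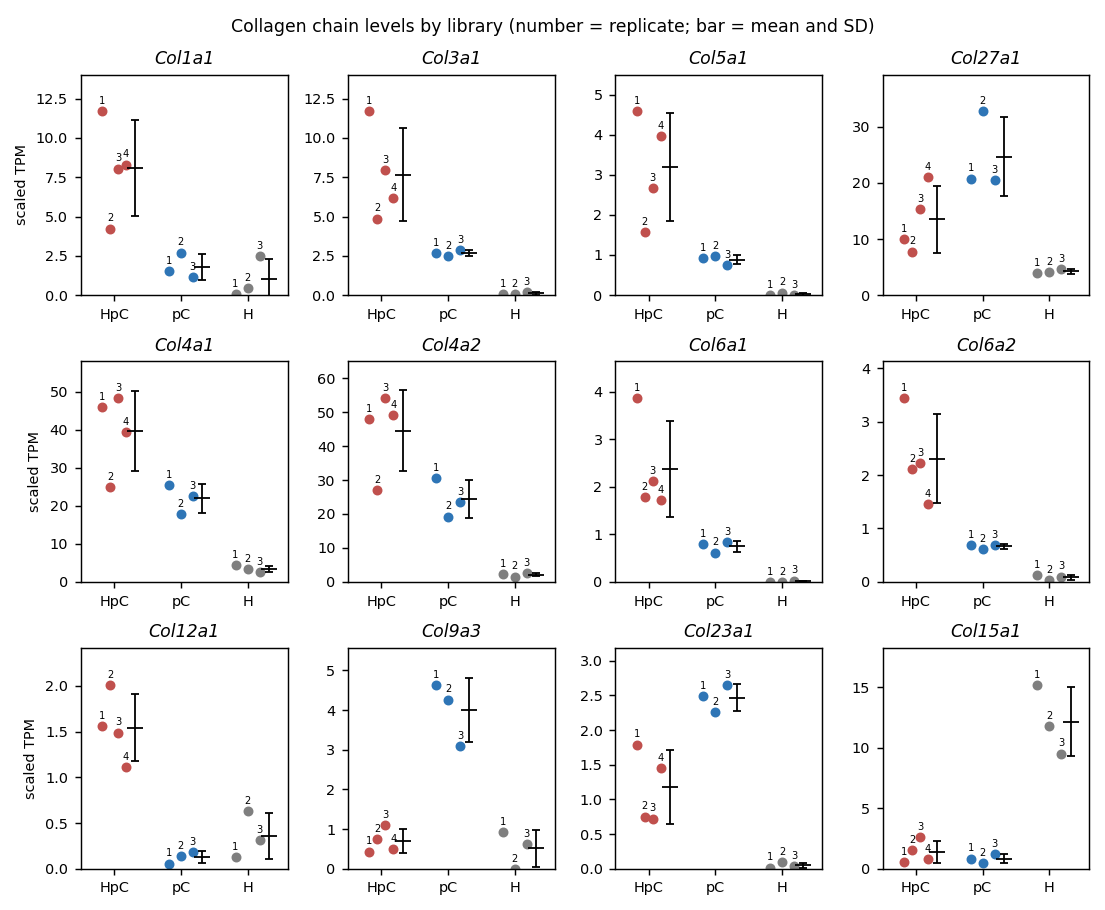
Scaled TPM (linear axes from 0) of 12 collagen chains in HpC, pC and H; points are libraries with their replicate numbers, and the bar beside each group is the mean with its SD. HpC lies wholly above pC for Col1a1, Col3a1, Col5a1, Col6a1, Col6a2 and Col12a1 and wholly below it for Col9a3 and Col23a1, and Col15a1 is highest in H.

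All 6 type IV genes, the basement membrane network class, were tested. Between HpC and pC limma called 0 of them, with 2 higher and 0 lower at an unadjusted p under 0.05. Against H, 5 of 6 were higher in HpC and 5 of 6 in pC, all but Col4a3 (of all genes 30.7% and 31.1%). The ubiquitous pair Col4a1 (chr8, 11198423 to 11312826, minus strand) and Col4a2 (chr8, 11312805 to 11449287, plus strand), whose products join in 1 trimer, lie head to head and overlap at their starts. Col4a1 stood at 46.0, 25.0, 48.3 and 39.3 scaled TPM in the HpC libraries, 25.5, 17.9 and 22.5 in pC, and 4.31, 3.42 and 2.58 in H. Col4a2 stood at 47.9, 27, 54.1 and 49.2 in HpC, 30.5, 19.2 and 23.6 in pC, and 2.26, 1.56 and 2.53 in H.

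HpC2 was the HpC library that reached into the pC range for both. The log2 difference between HpC and pC was 0.80 ± 0.24 for Col4a1 (adjusted p = 0.109) and 0.82 ± 0.26 for Col4a2 (adjusted p = 0.115). Without HpC2 both passed, at 1.0 for Col4a1 (adjusted p = 0.0209) and 1.04 for Col4a2 (adjusted p = 0.0182). Without HpC1 and HpC2 together, Col4a2 passed and Col4a1 did not. With TPM as deposited they shrank to 0.39 for Col4a1 and 0.41 for Col4a2 (adjusted p = 0.526 and 0.528). Against H, Col4a1 differed by 3.17 ± 0.24 in HpC and 2.38 ± 0.26 in pC, and Col4a2 by 3.84 ± 0.26 and 3.02 ± 0.27 (adjusted p from 7.92e-07 to 2.56e-05). Markers of endothelial cells, which also make type IV collagen, summed to 5.12 to 13.6 scaled TPM in HpC, 5.68 to 8.51 in pC and 0.69 to 1.67 in H, where Lyve1 and Emcn were listed at 0. Of 6 tested, limma called 0 between HpC and pC, and 0 at an unadjusted p under 0.05. Leukocyte markers summed to 12.2 to 29.2, 19.4 to 22.6 and 0.443 to 0.732. The part of either cell type in the type IV values was not tested.

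The other type IV chains, known for more tissue-restricted basement membranes such as that of the kidney glomerulus, did not pass between the cholangiocyte groups, whose libraries overlapped. Col4a5 (chrX, 141475385 to 141689234, plus strand) followed Col4a1 and Col4a2 as the next most abundant type IV chain of the cholangiocyte groups. It stood at 19.9, 12.2, 16.5 and 18.6 scaled TPM in the HpC libraries, 19.3, 20.2 and 15.2 in pC, and 0.463, 0.707 and 0.431 in H. Its HpC to pC difference was -0.12 ± 0.19 (adjusted p = 0.787), and its differences from H were 3.52 ± 0.19 and 3.64 ± 0.20 (adjusted p = 2.25e-07 and 2.72e-07). Its head-to-head neighbour Col4a6 (chrX, 141165403 to 141474076, minus strand) stood at 3.81, 2.54, 3.69 and 4.37 in HpC, 4.27, 2.70 and 3.57 in pC, and 0.0, 0.0 and 0.0177 in H. It differed by 0.03 ± 0.19 between HpC and pC (adjusted p = 0.956).

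In the third head-to-head pair, 1 gene of 2 passed against hepatocytes. Col4a4 (chr1, 82448423 to 82586849, minus strand) stood at 3.85, 2.16, 3.73 and 5.97 scaled TPM in the HpC libraries, 5.11, 3.87 and 5.07 in pC, and 0.269, 0.875 and 1.48 in H, and was higher in HpC than in H by 1.39 ± 0.29 (adjusted p = 0.00205). Col4a3 (chr1, 82586921 to 82722059, plus strand) stood at 4.42, 1.74, 3.02 and 4.91 in HpC, 3.22, 4.01 and 3.47 in pC, and 1.85, 2.61 and 3.16 in H. It did not pass against H from either group (adjusted p = 0.333 for HpC and 0.269 for pC). Whether the 2 genes differ from each other in that contrast was not tested. The short-chain network genes Col8a1, Col8a2 and Col10a1, found in endothelial membranes and growth plate cartilage, were below the filter, and their sum stayed at or under 0.957 scaled TPM.

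Type VI chains form beaded filaments that tie basement membranes to the tissue beneath. Of 6 genes, 4 were tested, and 3 of these were higher in HpC than in pC and 0 lower (of all genes 1.99% and 2.55%). Col6a5, 1 of the 3, had passed the filter only through HpC libraries, which favours a positive sign. For all 4 the HpC and pC libraries did not overlap, which held for 16.5% of all genes. Col6a1 (chr10, 76708792 to 76726168) stood at 3.87, 1.79, 2.13 and 1.73 scaled TPM in the HpC libraries, 0.797, 0.617 and 0.833 in pC, and 0.0, 0.0 and 0.0292 in H. Its difference was 0.91 ± 0.21 (adjusted p = 0.0402). Col6a2 (chr10, 76595762 to 76623630) stood at 3.44, 2.11, 2.23 and 1.46 in HpC, 0.688, 0.612 and 0.692 in pC, and 0.128, 0.0333 and 0.0986 in H, a difference of 0.96 ± 0.20 (adjusted p = 0.0236). Both are obligate partners of the third chain.

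The third chain, Col6a3, stood at 3.38, 0.78, 1.97 and 1.28 scaled TPM in HpC, 0.412, 0.771 and 0.657 in pC, and 0.016, 0.0 and 0.0 in H, and its HpC to pC difference of 0.75 ± 0.28 did not pass (adjusted p = 0.186). Col6a5 (chr9, 105856078 to 105960643), an alternative to Col6a3, stood at 0.758, 1.14, 1.18 and 0.72 in HpC, 0.17, 0.00571 and 0.18 in pC, and 0.0104, 0.0 and 0.0 in H. Its difference of 0.80 ± 0.16 passed (adjusted p = 0.0228) at a level near 1 TPM, which it reached only in HpC libraries. Against H all 4 chains were higher in HpC, by 0.95 to 1.70 on the log2 scale, and Col6a1 and Col6a2 were higher in pC (0.79 ± 0.23, adjusted p = 0.0125, and 0.62 ± 0.21, adjusted p = 0.0298). Of all genes, 30.7% in HpC and 31.1% in pC were called higher than in H. Without HpC1 and HpC2 together, Col6a1 still passed between HpC and pC (0.75, adjusted p = 0.0442), while Col6a2 and Col6a5 did not (adjusted p = 0.0568 and 0.0527). Over the 20 alternative settings that tested them, however, Col6a1 missed the threshold in 13, Col6a2 in 7 and Col6a5 in 8. Col6a4 and Col6a6 stayed at or under 0.568 scaled TPM.

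FACITs sit on fibril surfaces. Of 9 genes, 5 were tested, and 1 was higher and 1 lower in HpC than in pC (of all genes 1.99% and 2.55%). The higher one, Col12a1, had passed the filter only through HpC libraries. Col12a1 (chr9, 79598991 to 79718831), a type XII chain on type I fibrils, stood at 1.56, 2.01, 1.49 and 1.11 scaled TPM in the HpC libraries, 0.0556, 0.139 and 0.184 in pC, and 0.129, 0.629 and 0.313 in H. All HpC libraries lay above all others, while pC and H overlapped. The HpC mean of 1.54 ± 0.367 was 12.2 times the pC mean of 0.126 ± 0.0653. The log2 difference, which the added 1 compresses at such levels, was 1.16 ± 0.19 (adjusted p = 0.00726), and against H it was 0.91 ± 0.19 (adjusted p = 0.00187).

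Col9a3 (chr2, 180597790 to 180622189), a chain of type IX collagen on cartilage fibrils, went the other way. It stood at 0.434, 0.748, 1.10 and 0.491 scaled TPM in the HpC libraries, 4.63, 4.26 and 3.10 in pC, and 0.918, 0.0 and 0.615 in H. HpC lay wholly below pC and overlapped H. Its difference between HpC and pC was -1.56 ± 0.25 (adjusted p = 0.00698), it was higher in pC than in H by 1.76 ± 0.27 (adjusted p = 0.000255), and HpC and H differed by 0.20 ± 0.25 (adjusted p = 0.514). Its partner Col9a2 was below the filter, at 1.07 in pC1 and at or under 0.331 elsewhere, and Col9a1 was at or under 0.147.

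The most abundant FACIT of the cholangiocyte groups was Col16a1 (chr4, 130047840 to 130099283), at 39.0, 30.6, 32.3 and 32.9 scaled TPM in the HpC libraries, 24.9, 28.4 and 42.2 in pC, and 0.664, 0.197 and 0.539 in H. It did not pass between the cholangiocyte groups (0.11 ± 0.20, adjusted p = 0.821) and was higher than H in both (4.57 ± 0.20, adjusted p = 9.0e-08, and 4.46 ± 0.22, adjusted p = 1.4e-07). On its full-length coding transcripts alone, which held 4.86% of its TPM, the differences from H were 1.30 in HpC (adjusted p = 0.025) and 1.18 in pC (adjusted p = 0.0495). Col14a1 (chr15, 55307750 to 55520803), a chain of mature fibrils, stood at 10.6, 2.44, 8.15 and 4.86 in HpC, 2.39, 1.73 and 2.44 in pC, and 0.305, 0.199 and 0.201 in H. Its HpC to pC difference of 1.10 ± 0.35 did not pass (adjusted p = 0.127), with HpC2 just above the highest pC library, and without HpC2 it was 1.43 (adjusted p = 0.0124). Col20a1 ran from 0.594 to 3.82 over all libraries and differed in none of the 3 comparisons. Col19a1 and Col22a1 were below the filter, at most at 0.835.

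Of the transmembrane collagens, Col23a1 and, in HpC2, Col17a1 exceeded 1 scaled TPM. Col23a1 (chr11, 51289920 to 51583918) was the single tested gene of the 4, at 1.79, 0.753, 0.723 and 1.45 scaled TPM in the HpC libraries, 2.49, 2.26 and 2.65 in pC, and 0.015, 0.0914 and 0.0418 in H. The 3 groups did not overlap. HpC differed from pC by -0.70 ± 0.20, which did not pass (adjusted p = 0.0881), and both groups were higher than H (1.02 ± 0.20, adjusted p = 0.00135, and 1.72 ± 0.21, adjusted p = 6.39e-05). Col17a1 (chr19, 47646344 to 47692094), the hemidesmosomal chain of squamous basal cells, stood at 52.5 scaled TPM in HpC2 and at 0.156, 0.206 and 0.312 in the other HpC libraries, at most 0.223 in pC and at most 0.408 in H. The squamous markers Krt5 and Trp63 stood at 784 and 67.7 in HpC2 and at most at 0.626 and 0.0501 elsewhere. Col13a1 and Col25a1 stayed at or under 0.266. Col7a1, the anchoring fibril chain that tethers squamous basement membrane, stood at 3.73, 2.02, 0.303 and 0.675 in HpC, 0.0911, 0.437 and 0.212 in pC, and 0.0318, 0.097 and 0.0 in H. It did not pass between HpC and pC (0.93 ± 0.38, adjusted p = 0.239) and was higher in HpC than in H (1.18 ± 0.38, adjusted p = 0.0222).

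Multiplexins were the class that was lower in both cholangiocyte groups than in hepatocytes. Col18a1 (chr10, 77052178 to 77166548, minus strand) was the most abundant chain, at 103, 58.7, 90.8 and 83.1 scaled TPM in the HpC libraries, 77.4, 57.3 and 65.2 in pC, and 389, 508 and 473 in H. Col15a1 (chr4, 47208161 to 47313167) stood at 0.566, 1.56, 2.62 and 0.787 in HpC, 0.844, 0.461 and 1.24 in pC, and 15.2, 11.8 and 9.52 in H. For both genes H lay wholly above the other groups, which overlapped each other. Against H, Col18a1 fell by 2.45 on the log2 scale in HpC (SE 0.21, adjusted p = 3.74e-06) and by 2.76 in pC (SE 0.22, adjusted p = 2.72e-06). Col15a1 fell by 2.52 in HpC (SE 0.30, adjusted p = 4.44e-05) and by 2.83 in pC (SE 0.32, adjusted p = 3.25e-05). Between HpC and pC both differed by 0.31 (adjusted p = 0.485 for Col18a1 and 0.643 for Col15a1).

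Col18a1 is read from separate starts, and its transcripts were compared after the gene totals had been seen. One coding transcript begins at the upstream start shown above and another at a downstream start. The upstream transcript averaged 21.2 ± 4.26 scaled TPM in the HpC libraries, 18.1 ± 3.52 in pC and 71.7 ± 11.4 in H, and the downstream transcript averaged 35.7 ± 8.71, 26.4 ± 3.04 and 262 ± 31.2. The downstream transcript held 64.2, 61.1, 62.2 and 62.9% of their sum in HpC, 57.1, 61.3 and 60.0% in pC, and 79.4, 78.9 and 77.5% in H. Every H library lay above every HpC and pC library, while HpC and pC overlapped. By a two-sided exact permutation test, HpC and H differed by -16.0 points (p = 0.0286, the smallest that 4 against 3 allows; 0.0858 adjusted over the 3 comparisons). By the same exact test, pC and H differed by -19.1 points (p = 0.1, the smallest that 3 against 3 allows), and HpC and pC by 3.11 points (p = 0.0857). The share does not depend on the rescaling between libraries.

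**Figure D3:**
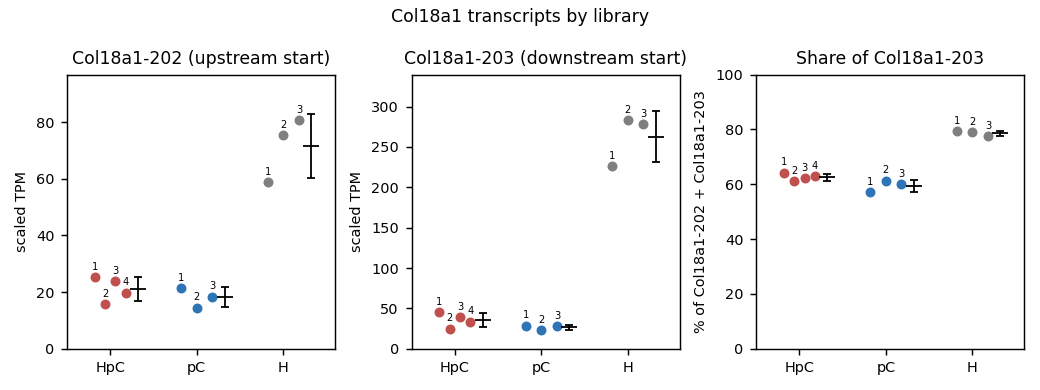
Left and centre, scaled TPM of the Col18a1 transcripts from the upstream and downstream starts; right, the downstream transcript as a percentage of their sum (points are libraries with replicate numbers, bars are means with SD). Both transcripts are highest in H, where the downstream share is 77.5 to 79.4%, against 57.1 to 64.2% in the cholangiocyte libraries.

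Of the 2 chains outside these classes, Col28a1 was at most 0.0308 scaled TPM and Col26a1 stood at 7.80, 2.16, 8.24 and 11.6 in HpC, 9.72, 6.95 and 19.5 in pC, and 3.14, 3.33 and 5.72 in H. Col26a1 was called higher in pC than in H (1.29 ± 0.50, adjusted p = 0.0477), but 99.8% of its TPM lay in a 578-base transcript annotated as a retained intron.

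**Figure D4:**
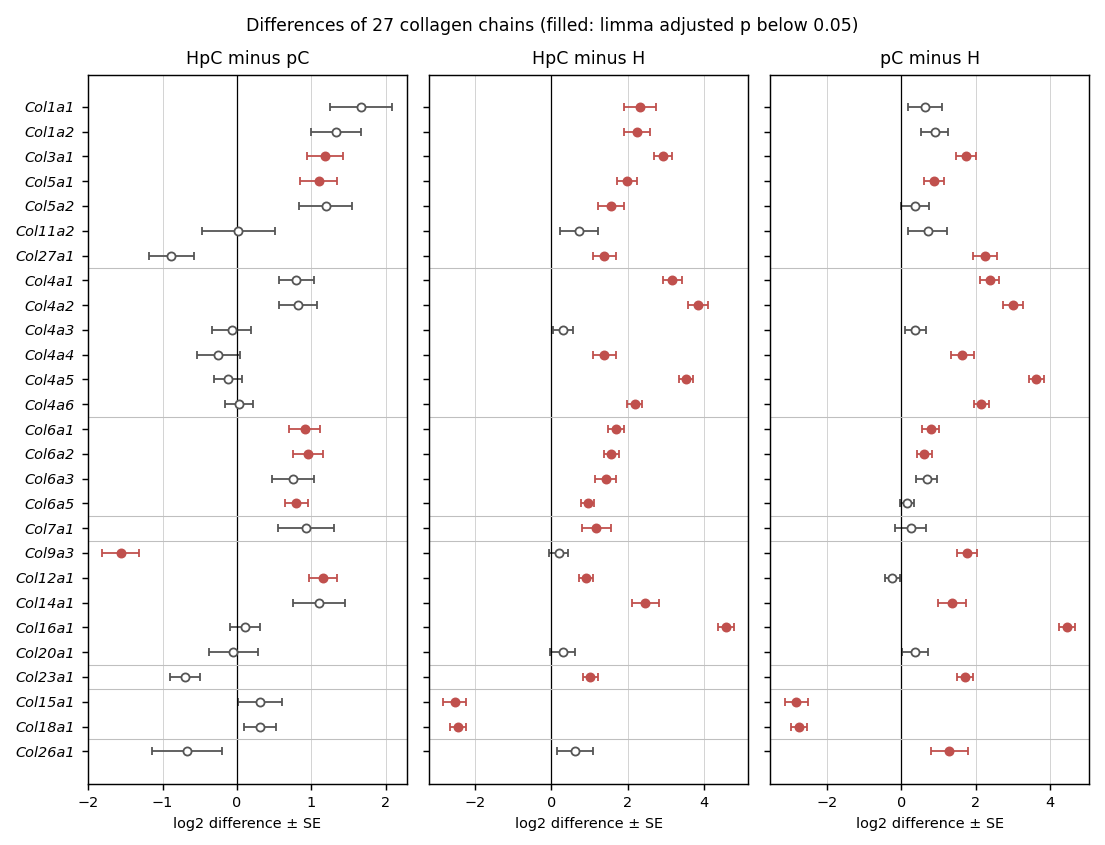
Log2 difference with its SE for the 27 tested chains (rows, by class from fibrillar at the top) in HpC minus pC, HpC minus H and pC minus H; filled points passed at a limma adjusted p under 0.05. In HpC minus pC 7 points are filled, and in both comparisons with H the 2 multiplexins alone lie filled on the negative side.

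Summed over each class, the fibrillar, type IV and transmembrane collagens of HpC and pC overlapped. A class sum is dominated by its abundant members, so these sums are given with no test. Fibrillar chains summed to 53.3, 23.5, 46.7 and 48.8 scaled TPM in the HpC libraries, 27.9, 44.3 and 32 in pC, and 5.51, 7.77 and 10.1 in H. HpC and pC overlapped, and their log2 difference was 0.26 with a pooled SD of 0.46, or 0.52 without HpC2. With TPM as deposited it was -0.15. Col27a1, whose sign was opposite to that of the type I and type III chains, made up 13.5 ± 5.93 of the HpC sum and 24.7 ± 7.02 of the pC sum.

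Type IV chains summed to 126, 70.7, 129 and 122 scaled TPM in the HpC libraries, 87.9, 68.0 and 73.4 in pC, and 9.16, 9.17 and 10.2 in H. Their log2 difference between HpC and pC was 0.52 (pooled SD 0.34), or 0.72 without HpC2, where every remaining HpC library lay above pC. Against H it was 3.39 in HpC and 2.87 in pC. Transmembrane chains summed to 2.15, 53.4, 1.19 and 2.01 in HpC, 2.79, 2.69 and 2.88 in pC, and 0.015, 0.274 and 0.45 in H. Their HpC to pC difference turned from 0.62 (pooled SD 1.68) to -0.46 without HpC2.

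Within the collagen total of each library the make-up of hepatocytes stood apart. Col18a1 held 92.2 ± 1.33% of the summed collagen TPM in H, 26.1 ± 2.44% in HpC and 28.0 ± 3.29% in pC, and type IV chains held 1.94 ± 0.229%, 34.8 ± 5.30% and 32.1 ± 3.45%. The H libraries did not overlap the others for either share, and HpC and pC overlapped for both. All chains together averaged 318 ± 43.6 scaled TPM in the HpC libraries, 238 ± 14.2 in pC and 495 ± 60.0 in H. Leaving out Col18a1, they averaged 234 ± 25.1, 171 ± 10.2 and 38.2 ± 3.51.

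**Figure D5:**
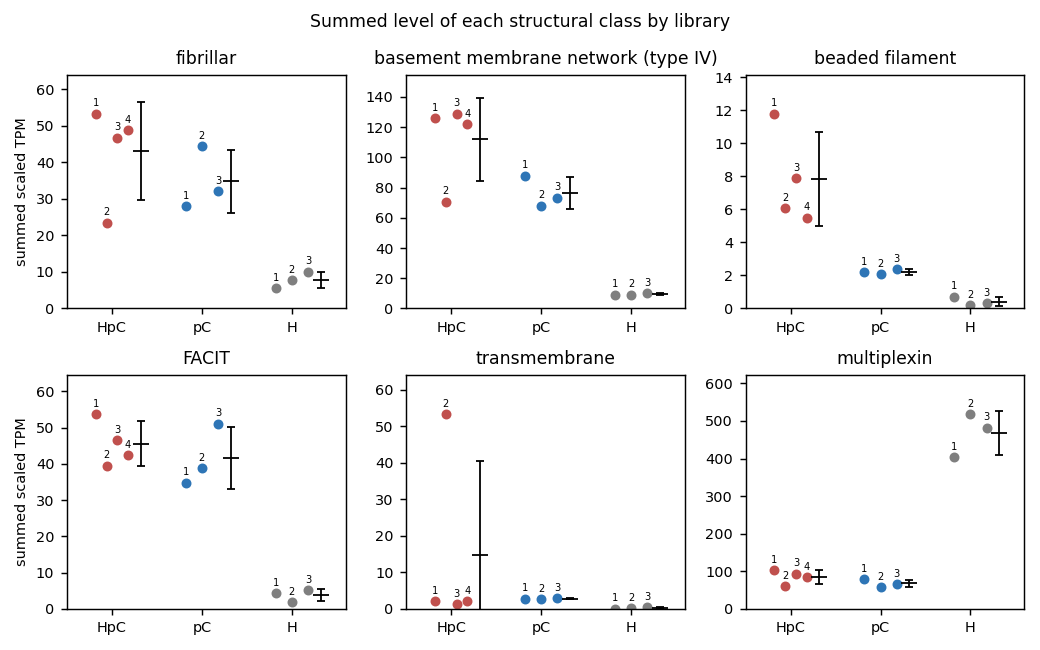
Summed scaled TPM (linear axes from 0) of 6 structural classes by group; points are libraries with replicate numbers and bars are means with SD, which for the transmembrane class in HpC runs below 0 and is clipped by the axis. HpC2 is the lowest HpC library for the fibrillar and type IV sums and the highest for the transmembrane sum, and multiplexins are highest in H.

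Short transcripts carried part of several chain totals. Over all libraries, 17 of the 27 tested chains had more than 50% of their TPM in full-length coding transcripts, meaning coding transcripts at least 50% as long as the longest of the gene, and 10 had less. The share was 99.6% for Col3a1, 97.2% for Col4a1 and 100% for Col6a5. It was 50.8% for Col4a2, 53.5% for Col12a1, 44.2% for Col5a2, 42.8% for Col27a1, 39.6% for Col1a1, 20.5% for Col9a3 and 23.9% for Col15a1. A 337-base noncoding transcript held 55.9% of the TPM of Col1a1, and a 356-base transcript annotated as a retained intron held 52.6% of that of Col5a2.

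On full-length coding transcripts alone, a setting added after the data had been seen, 24 chains could be tested. Then 7 were higher and 2 lower in HpC than in pC, all 7 chains called on gene totals among them. Col1a1 joined the higher ones at 1.14 (adjusted p = 0.00768), with 4.40, 2.37, 3.39 and 2.54 scaled TPM in the HpC libraries, 0.83, 0.86 and 0.905 in pC, and 0.0713, 0.0917 and 0.102 in H. Col23a1 joined the lower ones at -0.63 (adjusted p = 0.0466). Col9a3 shrank from -1.56 to -0.72 between HpC and pC (adjusted p = 0.0329) and from 1.76 to 0.87 between pC and H (adjusted p = 0.00155). Col15a1 shrank from -2.52 to -1.56 between HpC and H (adjusted p = 1.95e-05) and from -2.83 to -1.76 between pC and H (adjusted p = 1.39e-05). Col12a1 stood at 0.829, 0.922, 0.843 and 0.854 in HpC and 0.0551, 0.0367 and 0.054 in pC. By this measure Col1a1 was above every pC library in every HpC library and above every H library in every pC library. Col27a1 then stood at 5.34, 2.98, 6.19 and 8.25 in the HpC libraries, below Col3a1 in HpC1, HpC2 and HpC3 and above it in HpC4. Col5a2 no longer passed the filter and was not tested.

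Ratios between partner chains were taken on full-length coding transcripts. Col4a1 over Col4a2 was 1.74 ± 0.183 in HpC, 1.74 ± 0.0433 in pC and 1.43 ± 0.289 in H, whereas on all transcripts it was 0.895 ± 0.0689, 0.906 ± 0.0602 and 1.71 ± 0.613. Col1a1 over Col1a2 was 1.59 ± 0.420 in HpC and 1.12 ± 0.0617 in pC. Col6a1 over Col6a2 was 0.939 ± 0.141 and 1.15 ± 0.136. Col4a5 over Col4a6, at 3.34 to 3.51 in HpC and 4.14 to 5.38 in pC, was the ratio among these whose HpC and pC libraries did not overlap, but on all transcripts they overlapped, at 4.27 to 5.22 and 4.25 to 7.5. These ratios were not tested.

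Genes that build and hold collagen were read by list, in order of their step in collagen assembly. Of 15 tested genes for chain modification and folding, 2 were higher in HpC than in pC and 0 lower (median 0.18; of all genes 1.99% and 2.55%). Colgalt1, which adds sugar to collagen hydroxylysine, stood at 18.1, 15.2, 17.5 and 16.5 scaled TPM in HpC and 7.40, 6.74 and 9.67 in pC (1.01 ± 0.15, adjusted p = 0.00527). Crtap, a part of the prolyl 3-hydroxylation complex, stood at 11.1, 9.40, 10.7 and 8.36 against 5.17, 4.61 and 4.22 (0.94 ± 0.22, adjusted p = 0.0382). The collagen chaperone Serpinh1 overlapped between them, at 31.7 to 46.3 and 33.4 to 40.6, and at most 0.0604 in H. Against H, 8 of the 15 were higher and 4 lower in HpC (of all genes 30.7% and 29.2%), and 8 higher and 5 lower in pC (31.1% and 28.6%). Of 6 secretion genes limma called 0 between HpC and pC, with 1 higher at an unadjusted p under 0.05. Compared with H, 5 were lower in HpC and 6 in pC (of all genes 29.2% and 28.6%). Sar1b was among them, at 17.6 to 30.9 in HpC, 10.8 to 21.2 in pC and 168 to 187 in H.

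Of 10 tested genes for propeptide processing and crosslinking, 2 were higher in HpC than in pC and 0 lower (median 0.40), against 1.99% and 2.55% of all genes. Loxl2, a lysyl oxidase that crosslinks type IV collagen among others, stood at 8.08, 5.75, 6.37 and 6.19 scaled TPM in the HpC libraries, 0.549, 0.54 and 0.724 in pC and at most 0.153 in H (2.24 ± 0.16 between HpC and pC, adjusted p = 0.000104). Pcolce, an enhancer of procollagen cleavage, stood at 9.77 to 12.7 in HpC and 4.60 to 5.77 in pC (0.93 ± 0.18, adjusted p = 0.0165). Among 5 tested receptors 1 was higher in HpC than in pC (of all genes 1.99%), the collagen-binding integrin chain Itga2. It stood at 2.55, 3.65, 5.40 and 3.86 in HpC and 0.433, 0.454 and 1.07 in pC (1.55 ± 0.22, adjusted p = 0.0039). The receptor kinase Ddr1 ran from 41.4 to 59.2 across both groups, which overlapped, and at most 2.07 in H. Against H, the crosslinking list had 8 higher and 1 lower in each cholangiocyte group, and the receptors 4 higher in HpC and 3 in pC. Of all genes, 30.7% were higher and 29.2% lower in HpC than in H, and 31.1% and 28.6% in pC.

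Partners of type IV collagen in the basement membrane moved both ways. Of 19 tested, 4 were higher in HpC than in pC and 2 lower (median 0.27), against 1.99% and 2.55% of all genes. Nid1, a nidogen that bridges type IV collagen and laminin, stood at 20.7, 12.0, 19.6 and 12.7 scaled TPM in the HpC libraries, 0.783, 0.627 and 0.454 in pC, and 4.20, 8.21 and 6.94 in H. It was higher in HpC than in pC by 3.38 ± 0.25 (adjusted p = 0.000165) and lower in pC than in H, at -2.16 ± 0.27 (adjusted p = 6.59e-05). Nid2 was higher by 0.85 ± 0.15 (adjusted p = 0.0113), Dst by 1.41 ± 0.26 (adjusted p = 0.0148) and Lamb1 by 1.10 ± 0.24 (adjusted p = 0.0291). Lama4 and Lamb2 were lower, at -0.82 ± 0.17 (adjusted p = 0.0235) and -0.73 ± 0.18 (adjusted p = 0.0438). Against H, 17 were higher and 1 lower in HpC (59.9% of all genes called), and 15 higher and 3 lower in pC (59.6%). Of 9 tested fibril-associated proteoglycans and glycoproteins 1 was higher in HpC than in pC (of all genes 1.99%), and the median was 0.95. The gene called was the small proteoglycan Fmod, at 1.27 to 2.01 against 0.071 to 0.55 (0.95 ± 0.19, adjusted p = 0.0195). Fmod reached 1 TPM only in HpC libraries, so it had passed the filter through the group in which it was high. Against H, 7 were higher and 1 lower in HpC (of all genes 30.7% and 29.2%), and 4 higher and 1 lower in pC (31.1% and 28.6%).

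The calls between HpC and pC rested on few libraries. Of the 7 chains called, Col12a1 passed under every setting in which it was tested, with adjusted p from 0.00179 to 0.036, but it reached 1 TPM in HpC libraries alone and the filter at 5 TPM left it out. Col9a3 missed only with a pseudocount of 0.1 (adjusted p = 0.112). Leaving out HpC3 or any 1 of the pC libraries left Col12a1 as the single chain called higher, while leaving out HpC2 raised the number from 6 to 11, adding Col1a1, Col1a2, Col4a1, Col4a2 and Col14a1. Leaving out HpC1 and HpC2 together gave 7, with Col1a1, Col1a2 and Col4a1 not among them. No chain called in any comparison changed sign under any setting run.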

How the data were processed

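The authors deposited, for each library, the TPM of 85276 Ensembl transcripts. Tools named in the submitters' processing notes are kallisto and DESeq, without versions or roles, and the build is mm10. Per the labels, low-input libraries were sequenced with 50-base reads from a single end. TPM sums to the same total in every library, so depth is unknown and no count test was possible.

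Transcripts were joined to genes through GENCODE M21, on mm10 (81927 matched; 3349, holding 4.222 to 9.058% of TPM, did not and were left out) and TPM was summed over all 29972 genes. Genes at 1 TPM or more in at least 3 libraries were tested (14765). TPM was rescaled by an unweighted trimmed mean of log ratios (30% of ratios and 5% of levels trimmed at each end; factors 0.499 to 1.613). Limma 3.58.1 (R 4.3.3) with a mean-dependent prior was fitted to log2(scaled TPM + 1) of all 10 libraries, with Benjamini-Hochberg adjustment over all tested genes at 5%. The log2 values and differences, computed here from the deposited TPM, understate changes of low genes. Short reads can be assigned wrongly between overlapping transcripts and genes, such as Col4a1 and Col4a2 at their shared start.

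The members, gene lists, structural classes and tests were chosen with earlier results of these data known. All tested chains are named, with values per library for chains called in any comparison and the most abundant of each class, and from other lists up to 4 called genes of smallest adjusted p (Lamb1, Lamb2, Serpinh1, Ddr1, Dcn, Ecm1, Pdgfrb, Lrat, Rgs5, Fbln2, Krt5, Trp63 and Thy1 were added after their values were seen). Permutation tests planned for class sums were not used, because a sum over chosen members is given as a description. In data simulated for HpC against pC on 14765 genes, 53% of changes of 1 log2 unit and 90% of changes of 2 were recovered, and 13 of 156 calls were false. Changes were placed only in genes whose mean log2(scaled TPM + 1) was above 2. The rates therefore do not cover lower chains such as Col6a5 and Col12a1. Alternatives changed the pseudocount, filter, scaling, gene set, samples fitted, weights, replicate block, transcripts and libraries left out. Tables and figures were made with Python 3.11.15, pandas 2.3.3, numpy 2.4.6 and matplotlib 3.10.9.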

Additional observations from a re-analysis of the deposited data

Results flagged for a closer look

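Among 28 chains and 8 class sums examined for an HpC library far from the other 3, 4 values stood out by Dixon's criterion on log2 values, which chance meets in about 1 group in 20, and all 4 were HpC2. Col17a1 was 52.5 scaled TPM in HpC2, above the other HpC libraries, and the summed transmembrane chains, which contain it, were 53.4. The summed fibrillar chains were 23.5 and the summed basement membrane network chains 70.7, both below the other HpC libraries. On the linear scale of these values, the fibrillar sum falls short of the criterion. The squamous markers summed to 40600 scaled TPM in the same library, and their part in these values was not tested. Class sums without HpC2 are given with each class above.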

How the results depend on the processing

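In comparison HpC against pC, the 6 chains called higher became 3 with a pseudocount of 0.1, 3 with no filter, 1 with a filter at 5 TPM (which leaves 13 chains), 2 with TPM as deposited, 2 when only these 2 groups were fitted and 13 with array weights, and ran from 1 to 11 with single libraries left out. The 1 called lower became 0 with a pseudocount of 0.1, 0 with the filter at 5 TPM, 2 with TPM as deposited, 2 with array weights and 2 on full-length coding transcripts, and ran from 1 to 2 with single libraries left out. Of the 20 chains not called, 11 were called under no setting. For HpC against H, the filter at 5 TPM gave 10 higher and 1 lower, and 21 of 22 chains were called under every setting that tested them, Col7a1 being the exception. For pC against H, no filter gave 4 lower and the filter at 5 TPM 1, and 12 of 17 chains were called under every setting that tested them. The cause was not tested except for the stricter filter, which removes chains.

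TPM as deposited moved the median log2 difference of all genes to -0.36, 0.87 and 1.2 in the 3 comparisons. The fibrillar sum then differed from H by 3.28 in HpC and 3.44 in pC, the type IV sum by 0.09 between HpC and pC and by 4.40 and 4.31 from H, and the transmembrane sum by 2.25 between pC and H. Col18a1, Col4a6, Col16a1 and Col11a2, none of them called, turned negative between HpC and pC. On full-length coding transcripts the type IV share was 42.4% in HpC and 44.5% in pC.

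Replicate numbers did not pair the samples: deviations of same-numbered libraries correlated at -0.046 to 0.084. HpC4 has no partner of its number and was not covered. With the replicate number as a block, which drops HpC4, 3 chains were higher and 1 lower between HpC and pC, Col5a1, Col6a1 and Col6a5 missing the threshold. Depth is unknown, so chains near 0 have no detection limit.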
